A study of Rattus norvegicus with 35 samples.

Results

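The genes described here are 10 acute phase genes of rat liver: A2m, Orm1, Hp, Lcn2, Crp, Lbp, Itih3, Itih4, Hamp and Apcs. They were taken as a list of names, and every probe set that the platform annotation gives to 1 of these genes alone was used. Each had 1 such probe set, so that 10 of the 14217 genes read by the array, and 10 of its 31042 tested probe sets, are members.

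The acute phase response is the change in secreted proteins that hepatocytes make when infection or tissue damage occurs. Interleukin-6, acting through STAT3, and interleukin-1 and tumour necrosis factor, acting through NF-kB and C/EBP factors, raise the transcription of the positive acute phase genes, with glucocorticoid as a cofactor. The proteins differ between species: in the rat alpha-2-macroglobulin (A2m) and alpha-1-acid glycoprotein (Orm1) are strong responders, whereas C-reactive protein (Crp) is made at a high level without a stimulus. Hepcidin (Hamp) answers to interleukin-6 as well, and also to iron through the BMP and SMAD pathway.

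The animals were male rats of the Harlan Sprague Dawley stock, aged 7 weeks when dosing began, and received BTBPE, a brominated flame retardant, by gavage in corn oil once a day for 5 days. The groups were 0.07, 0.69, 6.88, 68 and 680 mg/kg a day, with 6 rats each except for 5 at 68 mg/kg, and 6 vehicle rats that received corn oil without BTBPE. RNA was isolated from the left liver lobe 1 day after dosing ended, and each of the 35 samples was read on 1 Affymetrix 3 prime expression array. The study set each dose against vehicle. The labels call the samples replications, each is counted here as 1 rat, and p-values measure the spread between these samples.

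All values are the authors' deposited log2 expression values, which ran from 1.45 to 14.44 with array medians from 4.71 to 4.79. An array has no read depth, and the number of arrays limits the precision. No pair of arrays held identical values, and any 2 arrays correlated at 0.991 to 0.996. The labelled tissue was checked on 12 hepatocyte markers, and 12 of 12 read above the lowest array median. The difference between the 3 prime and 5 prime probe sets of Actb, a measure of RNA and labelling quality, ran from 1.02 to 1.37 over the arrays, with group medians between 1.10 and 1.20. RNA of a whole lobe piece cannot tell fewer cells of a type from less RNA per cell.

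The bases just before the transcription start are shown for 4 members, because these are the genes whose variation among rats is described most closely further on. Orm1 with Apcs and Orm1 with Itih3 were the pairs with the largest correlations, neither of which passed over all probe sets, and Hamp had the widest spread over all rats, though not without 1 of them. RefSeq promoter windows of build GRCr8 were matched by gene identifier for 7 of the 10 members; A2m, Hp and Lbp are named only. Each line gives the 250 bases before the start site, 5′ to 3′ on the strand of the gene. The windows are chr5:81788259-81788508 on the plus strand for Orm1, chr16:6123375-6123624 on the minus strand for Itih3, chr13:87906509-87906758 on the minus strand for Apcs and chr1:95300272-95300521 on the minus strand for Hamp. Capitals mark matches, on either strand, to the letters TTCNNNGAA for STAT factors and TTNNGNAA for C/EBP, and to GGGA followed by any 4 bases and CC for NF-kB.
Orm1: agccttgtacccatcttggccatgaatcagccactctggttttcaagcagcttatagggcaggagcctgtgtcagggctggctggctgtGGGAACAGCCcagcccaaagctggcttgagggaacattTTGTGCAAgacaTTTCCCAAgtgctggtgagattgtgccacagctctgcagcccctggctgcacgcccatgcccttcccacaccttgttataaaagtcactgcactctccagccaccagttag
Itih3: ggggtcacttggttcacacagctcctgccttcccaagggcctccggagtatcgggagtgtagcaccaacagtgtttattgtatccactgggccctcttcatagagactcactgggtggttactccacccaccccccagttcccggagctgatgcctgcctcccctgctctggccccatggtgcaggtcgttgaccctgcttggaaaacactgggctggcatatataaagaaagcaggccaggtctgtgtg
Apcs: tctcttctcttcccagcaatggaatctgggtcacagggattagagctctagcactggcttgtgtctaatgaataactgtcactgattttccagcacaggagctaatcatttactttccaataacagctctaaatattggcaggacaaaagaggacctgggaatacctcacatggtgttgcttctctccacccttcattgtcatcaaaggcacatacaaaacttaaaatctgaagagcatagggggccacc
Hamp: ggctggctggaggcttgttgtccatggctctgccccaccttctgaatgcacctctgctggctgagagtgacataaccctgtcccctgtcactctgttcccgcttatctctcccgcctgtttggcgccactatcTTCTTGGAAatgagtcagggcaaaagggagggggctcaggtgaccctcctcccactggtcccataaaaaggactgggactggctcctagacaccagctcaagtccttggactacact

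Orm1 held 2 C/EBP matches, beginning at -123 and -111 from the start site, and 1 NF-kB match beginning at -161, none of which overlapped. Hamp held 1 STAT match beginning at -117. Neither Itih3 nor Apcs held any of the 3 patterns in this window. Among the 3 other members with an entry, Itih4 held 1 STAT and 1 C/EBP match, Crp held 2 C/EBP matches, and Lcn2 held 1 C/EBP match and 2 overlapping NF-kB matches. Such letters are common. Of 33469 promoter windows of the same length, 7.67% held the STAT pattern, 37.2% the C/EBP pattern and 16.4% the NF-kB pattern, and a match is a description of sequence, not a site shown to be used.

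The first question was whether BTBPE moved the acute phase genes away from vehicle. It did not do so detectably at any dose. limma, fitted to all 31042 probe sets with Benjamini-Hochberg adjustment, called 0 of 10 members at each of the 5 doses. The share of all probe sets called was 0% at 0.07, 0% at 0.69, 0% at 6.88, 0% at 68 and 0% at 680 mg/kg. The 50 fold values, 10 members at 5 doses, ran from 0.769 to 1.14, with 21 above and 29 below vehicle. At every dose the rats overlapped the vehicle rats for every member, which is description only, since overlap was not counted over all probe sets. The 95% confidence intervals of all 50 included no change, and all 50 lay inside 0.5-fold to 2-fold, with ends from 0.560 to 1.62. The smallest unadjusted p among them was 0.0721 and the smallest adjusted p was 0.994.

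**Figure D1:**
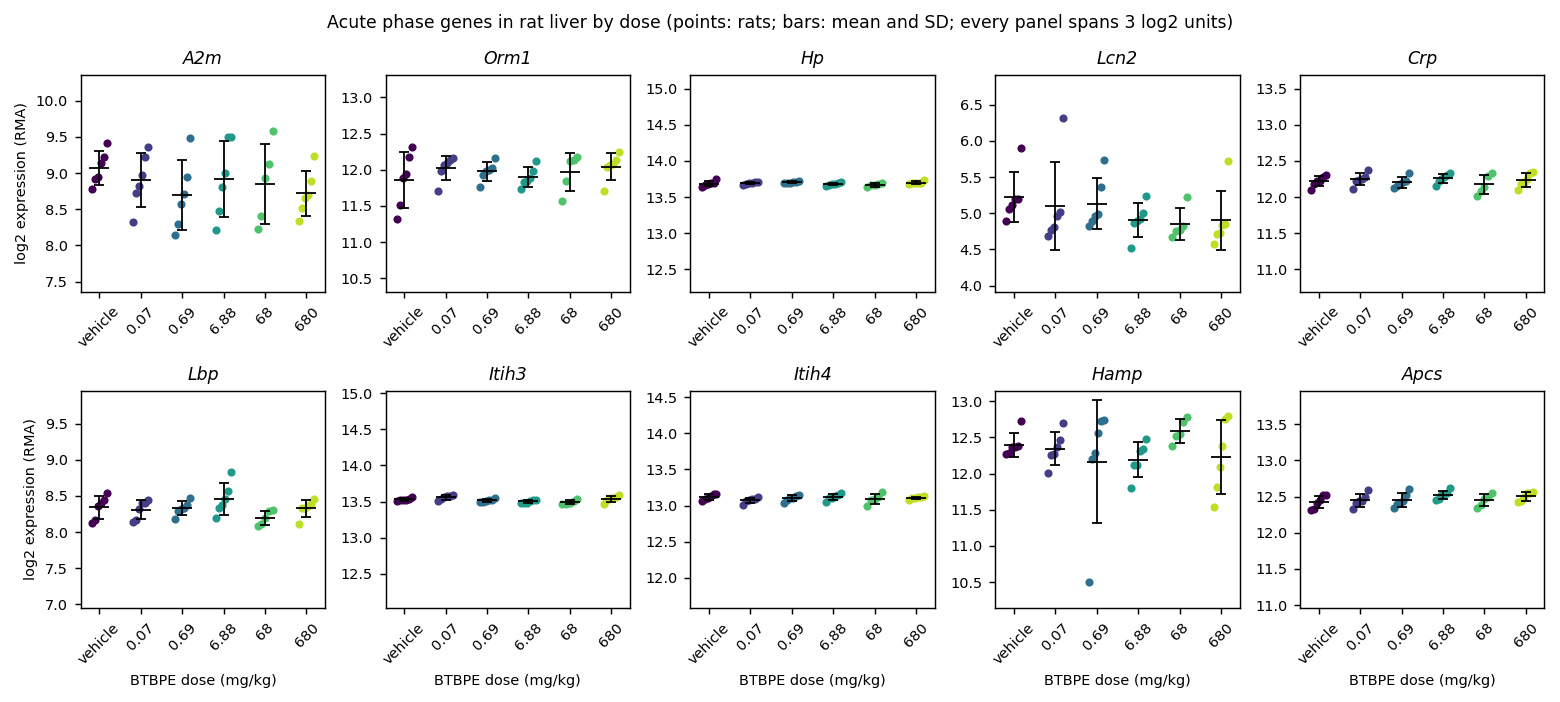
Log2 expression of each acute phase gene (vertical axis, every panel spanning 3 log2 units) against BTBPE dose in mg/kg (horizontal axis, vehicle at the low end). Points are single rats and bars are the group mean and SD. A2m, Lcn2 and Hamp scatter widely within groups, 1 rat at 0.69 mg/kg has a Hamp value of 10.50, and Hp, Itih3 and Itih4 form tight rows at every dose.

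A2m, a broad protease inhibitor that binds cytokines and is the classical strong acute phase protein of the rat, varied widely in every group. Vehicle rats had a lowest, median and highest log2 value of 8.78, 9.04 and 9.41. The same 3 values were 8.33, 8.90 and 9.36 at 0.07 mg/kg, 8.15, 8.64 and 9.49 at 0.69 mg/kg, and 8.21, 8.91 and 9.50 at 6.88 mg/kg. The 5 rats at 68 mg/kg had 8.22, 8.41, 8.93, 9.12 and 9.58, and those at 680 mg/kg had a lowest of 8.33, a median of 8.68 and a highest of 9.24. Every dose group reached below the lowest vehicle rat, all 5 dose medians lay under the vehicle median, and every group overlapped the vehicle range. The same vehicle rats serve all 5 comparisons. The mean at 0.69 mg/kg was 8.69 ± 0.484 against 9.07 ± 0.232 in vehicle rats (SD, n = 6 each), 0.771-fold with an interval of 0.560 to 1.06. At 680 mg/kg it was 0.787-fold (0.571 to 1.08). Neither passed in limma, with unadjusted p = 0.107 and 0.136 and adjusted p at 1.00 and 0.994. The rats of the vehicle group had the smallest SD for A2m of the 6 groups and the 68 mg/kg rats the largest, 0.548.

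Orm1 encodes alpha-1-acid glycoprotein, a plasma carrier of drugs and steroids. Its lowest, median and highest values were 11.31, 11.91 and 12.32 in vehicle rats, 11.70, 12.08 and 12.16 at 0.07 mg/kg, 11.77, 11.99 and 12.17 at 0.69 mg/kg and 11.74, 11.87 and 12.12 at 6.88 mg/kg. They were 11.57, 11.84, 12.12, 12.14 and 12.17 in the 5 rats at 68 mg/kg, and 11.70, 12.07 and 12.25 at 680 mg/kg. The vehicle group held both the lowest and the highest Orm1 value of the whole series, so every dose group lay inside its range. Orm1 was above the vehicle mean at all 5 doses, from 1.03-fold at 6.88 mg/kg to 1.14-fold at 680 mg/kg (interval 0.955 to 1.36, limma unadjusted p = 0.143, adjusted p = 0.994). All 5 comparisons use the same vehicle rats.

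Lcn2 encodes lipocalin 2, which withholds iron from bacteria by binding their siderophores and is made by hepatocytes, neutrophils and epithelia. It read low, with a mean of 5.02 over all rats, and some rats lay under the lowest array median of 4.71, so its differences are measured near the lower part of the array's range. Its lowest, median and highest values were 4.89, 5.15 and 5.90 in vehicle rats, 4.69, 4.88 and 6.31 at 0.07 mg/kg, 4.82, 4.98 and 5.73 at 0.69 mg/kg and 4.52, 4.91 and 5.24 at 6.88 mg/kg. The values were 4.67, 4.75, 4.77, 4.82 and 5.23 in the 5 rats at 68 mg/kg, and 4.57, 4.78 and 5.72 at 680 mg/kg. In most groups 1 rat stood well above the others. The mean lay below vehicle at all 5 doses, most at 68 mg/kg, with 4.85 ± 0.219 (n = 5) against 5.23 ± 0.351 in vehicle rats (SD, n = 6). That is 0.769-fold (interval 0.565 to 1.05, limma unadjusted p = 0.093, adjusted p = 0.999). The 5 comparisons share the vehicle rats, of which replicate 5 read 5.90 for Lcn2 and the next 5.20. Over the 6 dose ranks Lcn2 had a slope of -0.07 log2 units a step (SE 0.0357). It was the only member with an unadjusted p under 0.05 in limma's trend test (unadjusted p = 0.0492, adjusted p = 0.993). The same trend test without limma's moderation gave Lcn2 an unadjusted p of 0.0683. The share of all probe sets called by the trend test was 0%, and 0 of 10 members were called.

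Hamp encodes hepcidin, the peptide hormone that closes the iron exporter ferroportin. Its lowest, median and highest values were 12.27, 12.37 and 12.72 in vehicle rats, 12.01, 12.32 and 12.70 at 0.07 mg/kg, 10.50, 12.42 and 12.74 at 0.69 mg/kg and 11.80, 12.22 and 12.48 at 6.88 mg/kg. The 5 rats at 68 mg/kg had 12.38, 12.51, 12.54, 12.71 and 12.78, and those at 680 mg/kg had a lowest of 11.54, a median of 12.24 and a highest of 12.79. The lowest rats of the series were at 0.69, 680 and 6.88 mg/kg, and every dose group overlapped the vehicle range. The fold values ran from 0.852 at 0.69 mg/kg (interval 0.611 to 1.19, limma unadjusted p = 0.335) to 1.14 at 68 mg/kg (0.804 to 1.62, unadjusted p = 0.453), with adjusted p at 0.994 or more at every dose. The log2 difference at 0.69 mg/kg lay between -0.35 and 0.10 when any 1 rat was left out, and was 0.10 without replicate 5.

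Lbp, the lipopolysaccharide-binding protein that hands bacterial endotoxin to CD14, had a median of 8.39 in vehicle rats and medians from 8.19 at 68 mg/kg to 8.41 at 6.88 mg/kg in the dosed groups. The highest fold value was 1.09 at 6.88 mg/kg (interval 0.967 to 1.22) and the lowest 0.904 at 68 mg/kg (0.801 to 1.02). Apcs, serum amyloid P component, a pentraxin that coats amyloid and debris, was above its vehicle mean at all 5 doses, by 1.02-fold to 1.07-fold. These 5 comparisons share the vehicle rats. At 6.88 mg/kg Apcs averaged 12.52 ± 0.0584 against 12.43 ± 0.0893 in vehicle rats (SD, n = 6 each), 1.07-fold (0.994 to 1.15). Of the 50 contrasts this one had the smallest unadjusted p (limma unadjusted p = 0.0721, adjusted p = 0.999). The same model without limma's moderation gave 2 of the 50 contrasts an unadjusted p under 0.05, those of Apcs at 6.88 mg/kg and of Itih3 at 68 mg/kg (0.974-fold), and it too called 0 of 31042 probe sets at each dose.

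The 4 remaining members lay within a few percent of vehicle. Hp, haptoglobin, which captures free haemoglobin, ran from 0.988-fold to 1.01-fold. Itih3 and Itih4, heavy chains of the inter-alpha-trypsin inhibitor family that bind hyaluronan and plasma proteases, ran from 0.974-fold to 1.02-fold and from 0.969-fold to 1.00-fold. Crp, a pentraxin that binds phosphocholine on microbes and damaged cells, ran from 0.973-fold to 1.03-fold. Over all 35 rats the highest Hp value was 1.09-fold the lowest, and the same ratio was 1.09 for Itih3, 1.14 for Itih4 and 1.28 for Crp. By mean level Hp, Itih3 and Itih4 ranked 14, 29 and 52 from the top of all probe sets. Their differences are thus measured near the upper end of the range of values. With any dose allowed to differ and no order of dose assumed, limma's F test gave unadjusted p values from 0.122 for Lbp to 0.929 for Hp and called 0 of 10 members, as well as 0% of all probe sets.

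**Figure D2:**
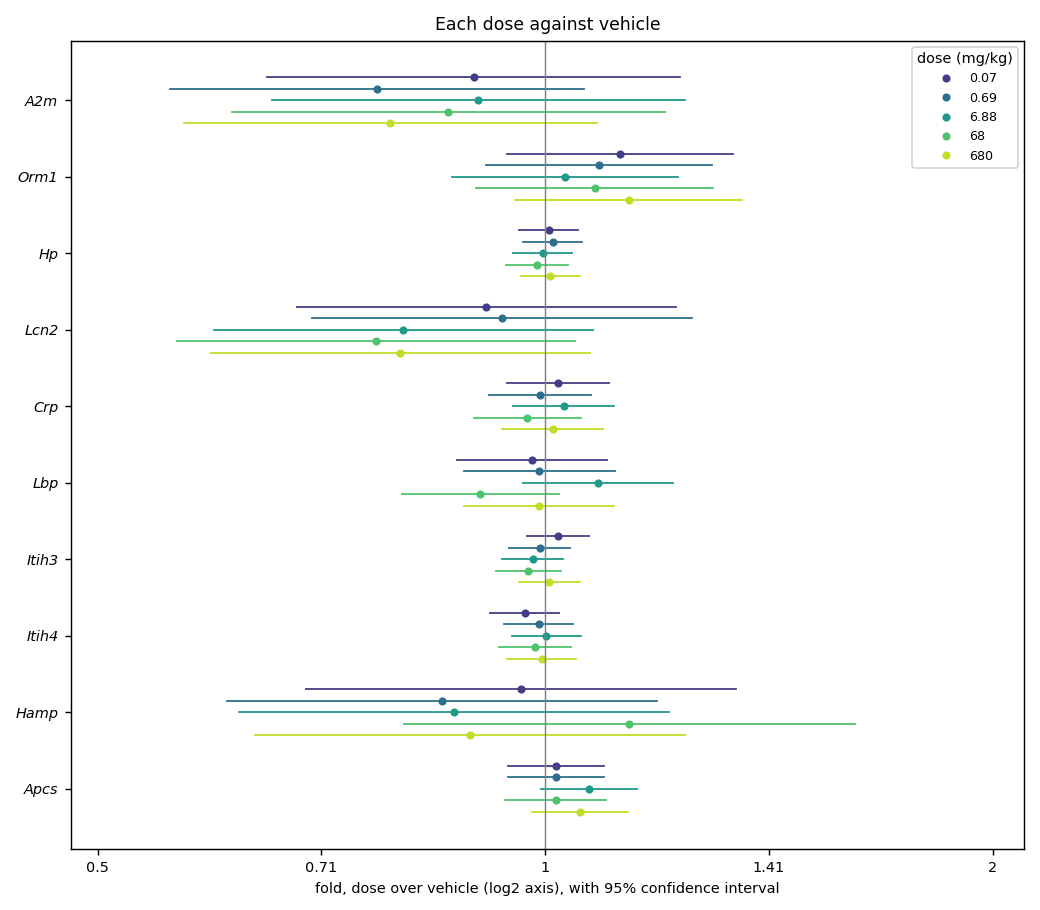
Fold value of each acute phase gene against vehicle with its 95% confidence interval (horizontal axis on a log2 scale), coloured by BTBPE dose. All 50 intervals include a fold of 1, and those of A2m, Lcn2 and Hamp are the widest.

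The order of the 6 group means differed from gene to gene, and in no member did it follow dose throughout. A2m was highest in vehicle rats, then at 6.88, 0.07, 68, 680 and 0.69 mg/kg. Orm1 had its highest mean at 680 mg/kg and its lowest in vehicle rats. Lcn2 was highest in vehicle rats, then at 0.69, 0.07, 6.88, 680 and 68 mg/kg. That is a falling dose order but for swaps of neighbouring doses. Hamp was highest at 68 mg/kg and lowest at 0.69 mg/kg. The mean at 68 mg/kg was the lowest of the 6 for Hp, Lcn2, Crp, Lbp and Itih3. For every member, each of the 5 steps between neighbours in that order was smaller than the SD among rats of one dose. This sets the steps beside the spread of single rats, and differences between neighbouring groups were not tested.

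No gene of the wider pathway was called either. For each list the number of measured genes with a mean above vehicle is given, and 0 members of any list passed limma's test over all probe sets at any dose. Of all probe sets, 49.5%, 48.7%, 48.7%, 48.9% and 48.3% lay above vehicle at 0.07, 0.69, 6.88, 68 and 680 mg/kg. Of the 10 acute phase genes 5, 3, 5, 3 and 5 did so in the same order of doses. Of 26 measured of 31 other positive acute phase genes the numbers were 10, 16, 16, 7 and 13, with median log2 differences between -0.03 and 0.01. Of 17 measured of 20 negative acute phase genes, which fall in a classical response, 11, 9, 15, 6 and 8 were above vehicle.

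The signals upstream of these genes were counted in the same way. Of 23 measured IL-6 and STAT3 signalling genes 14, 11, 12, 6 and 5 were above vehicle from 0.07 to 680 mg/kg, with a median log2 difference of -0.06 at 68 and -0.04 at 680 mg/kg. Of 21 IL-1, TNF and NF-kB signalling genes 11, 6, 9, 9 and 8 were above it. Of 18 measured iron and BMP regulators of hepcidin 5, 10, 5, 6 and 13 were above it, with a median of 0.05 at 680 mg/kg. Of 10 measured glucocorticoid responsive genes 2, 2, 4, 2 and 2 were above vehicle, with medians of -0.18, -0.10, -0.11, -0.33 and -0.25. This list shares Lcn2 with the members, and Tat, Mt1a and Mt2A with the other positive acute phase genes, so its counts are not separate from theirs.

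Markers of other liver cells were counted in the same way. Of 12 measured Kupffer and macrophage markers 0, 0, 1, 0 and 0 were above vehicle from 0.07 to 680 mg/kg, with median log2 differences of -0.19, -0.10, -0.10, -0.32 and -0.11. All 5 comparisons share the vehicle rats. Their summed level, the log2 of the sum over the markers, had group medians from 12.15 to 12.30 in the dosed groups and 12.39 in vehicle rats, with overlapping ranges. Of 9 measured neutrophil markers, 1 read above the lowest array median, and their summed level lay between 6.77 and 7.41 over all rats. Of 12 lymphocyte markers 3 read above the lowest array median, and 2, 5, 3, 3 and 3 were above vehicle. Of 12 hepatocyte markers 6, 5, 9, 4 and 6 were above vehicle, and of 3 measured blood markers 2, 3, 1, 1 and 2. The part of these cell types in the values of the acute phase genes was not tested.

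The second question was how far rats of one dose differed from each other. Hamp, A2m, Lcn2 and Orm1 had the widest spread of the members. The SD among rats of one dose, pooled over the 6 groups, was 0.442 for Hamp, 0.424 for A2m, 0.389 for Lcn2 and 0.227 for Orm1, on the log2 scale. These stood at the 99.1, 98.9, 98.7 and 92.6 percentile of all probe sets, whose median SD was 0.144. 1 SD corresponds to a factor of 1.36 for Hamp, 1.34 for A2m, 1.31 for Lcn2 and 1.17 for Orm1. Over all 35 rats the highest value was 4.91-fold the lowest for Hamp, 3.45-fold for Lcn2, 2.70-fold for A2m and 2.01-fold for Orm1.

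The other 6 members had smaller SDs, with Lbp at the median of all probe sets. The SD was 0.145 for Lbp, 0.0885 for Crp, 0.0815 for Apcs, 0.0429 for Itih4, 0.0283 for Itih3 and 0.0226 for Hp. Lbp stood at the 50.6 percentile of all probe sets, Crp at 7.56, Apcs at 5.32, Itih4 at 0.222, Itih3 at 0.0451 and Hp at 0.00966. The array medians themselves had an SD of 0.0197 among rats of one dose, close to the SD of Hp and Itih3.

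Spread on an array also goes with signal level, so each member was set beside the probe sets whose mean lay within 0.5 log2 units of its own, a choice made after the data had been seen. Hamp stood at the 98.6 percentile of 221 such probe sets, Lcn2 at 98.3 of 4471, A2m at 97.8 of 1391 and Orm1 at 95.2 of 273. Hp stood at 6.98 of 43, Itih3 at 24.0 of 50 and Itih4 at 29.9 of 77. Apcs stood at 62.8 of 183, Crp at 64.5 of 231 and Lbp at 75.3 of 1885. Against probe sets of like signal, then, A2m, Orm1, Lcn2 and Hamp stayed among the most variable, while Crp, Apcs and Lbp were in the middle or above it.

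**Figure D3:**
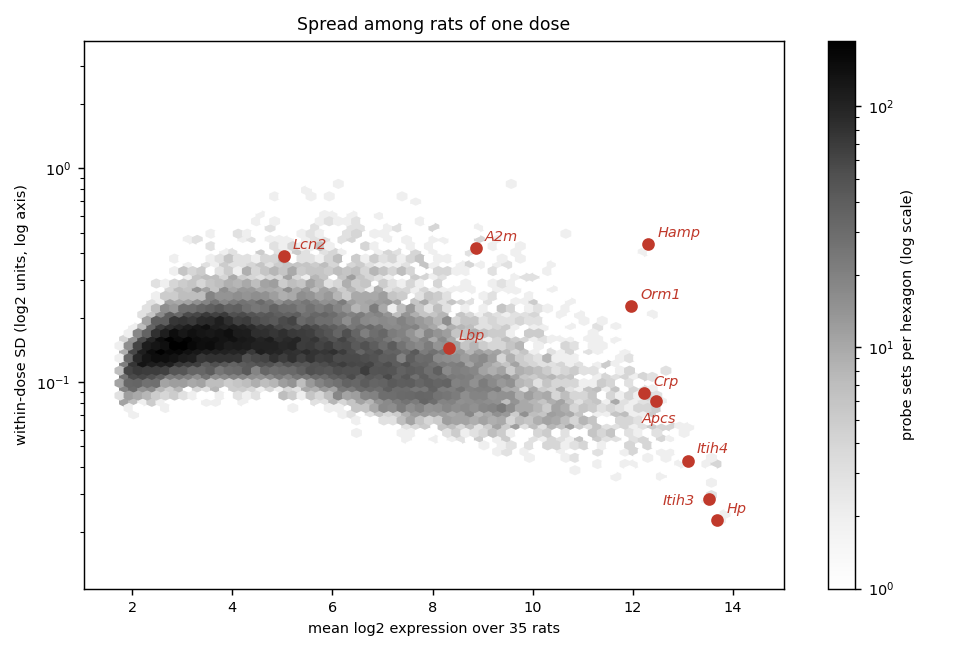
SD among rats of one dose (vertical axis, log scale) against the mean log2 expression over all rats (horizontal axis), for the 10 named acute phase genes over the density of all 31042 probe sets. Hamp, A2m, Lcn2 and Orm1 lie along the upper edge, and Hp, Itih3 and Itih4 at the lower right, with SDs under 0.05.

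Single rats set part of this spread. The Hamp SD was 0.288, under that of A2m, without replicate 5 of the 0.69 mg/kg group, whose Hamp value of 10.50 lay far under the 12.20 of the next lowest rat in that group. The SD from the median absolute deviation, which gives less weight to single rats, was 0.213 for Hamp, 0.121 for Lcn2, 0.0888 for Orm1 and 0.0142 for Hp. By that measure A2m (0.392) had the widest spread, Lcn2 lay beside Lbp (0.116), and Orm1 lay beside Apcs (0.0806). For A2m, by contrast, the pooled SD did not rest on 1 rat, and group SDs ran from 0.232 in vehicle rats to 0.548 at 68 mg/kg.

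The rat with the lowest Hamp value was examined across the lists after its value had been seen. In replicate 5 at 0.69 mg/kg 12 of 12 Kupffer and macrophage markers were the lowest of the 6 rats of that dose, with a summed level of 11.62 against 12.06 to 12.72 in the other 5. Cd163, the haemoglobin scavenger receptor of resident macrophages, read 5.47 against 6.44 to 6.70. Of 18 iron and BMP regulators 10 were the lowest of the group, among them the BMP target genes Smad7 at 6.30 against 6.86 to 7.16, Id1 at 6.01 against 6.50 to 7.03 and Id3 at 8.00 against 8.74 to 9.13. Also lowest in this rat were 9 of 21 IL-1, TNF and NF-kB genes and 6 of 23 IL-6 and STAT3 genes. The same held for 6 of 12 lymphocyte markers and 3 of 12 hepatocyte markers. How many of all probe sets were lowest in this rat was not counted. A2m went the other way in this rat, at 9.49, the highest of its group. Its Actb 3 prime to 5 prime difference was 1.27, the highest of its group, whose median was 1.11. The part of macrophage markers and of RNA quality in its Hamp value was not tested.

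The highest Lcn2 rat of 5 groups, all but 6.88 mg/kg, was examined in the same way. At 6.88 mg/kg the marker lists were not counted by rat. Replicate 2 had the highest Lcn2 there, 5.24, and Dmbt1 read 5.42 in it, inside the 4.93 to 5.87 of the others. Replicate 6 at 0.07 mg/kg had 6.31 for Lcn2 against 5.02 in the next rat, and 5 of 7 measured cholangiocyte markers, a list added after the data had been seen, were the highest of its group. Dmbt1, a mucin-like protein of bile duct epithelium, read 8.13 there against 5.33 to 5.92 in the other rats of the dose. Dmbt1 belongs to that list and was, of the genes compared, the most like Lcn2 over all rats (r = 0.74). The counts of this list in rats with high Lcn2 are therefore no independent test. Spp1, osteopontin, read 6.11 against 4.92 to 5.24 and Krt19, a keratin of bile duct cells, 6.00 against 4.71 to 5.20. In replicate 3 at 680 mg/kg, with 5.72 for Lcn2, 6 of 7 of these markers were the highest of the group and Dmbt1 read 6.23 against 5.19 to 5.38. In vehicle replicate 5, with 5.90 for Lcn2, 4 of 7 were the highest and Dmbt1 read 6.40 against 4.95 to 5.85. In the other 2 of these 5 rats Dmbt1 was not the highest of the group. In replicate 2 at 0.69 mg/kg, with 5.73 for Lcn2, 3 of 7 were the highest and Dmbt1 read 5.54, inside the 5.17 to 6.05 of the others, and in replicate 5 at 68 mg/kg, with 5.23 for Lcn2, 2 of 7 were the highest and Dmbt1 read 5.53 in that rat and in the highest of the others. Neutrophil markers were the highest of the group in 2 of 9 cases in the rat at 0.07 mg/kg, 2 of 9 at 0.69 mg/kg, 1 of 9 at 68 mg/kg, 3 of 9 at 680 mg/kg and 3 of 9 in the vehicle rat. Other lists stood out in these rats too. Kupffer and macrophage markers were the lowest of the group in 8 of 12 cases at 680 mg/kg and at 68 mg/kg. They were so in 2 of 12 at 0.07 mg/kg, 0 of 12 at 0.69 mg/kg and 0 of 12 in the vehicle rat. In the vehicle rat 9 of 18 iron and BMP regulators and 9 of 26 other positive acute phase genes were the highest. At 68 mg/kg 6 of the 10 members were. The share of all probe sets was not counted. The part of bile duct cells in the Lcn2 values was not tested.

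The third question was whether acute phase genes varied together among rats of one dose. Each member's dose means were subtracted, and the 45 pairs were correlated over 35 rats. Pearson's r was positive for 29 pairs and negative for 16, with a median of 0.05 and a range from -0.60 to 0.48. Its size was over 0.3 in 9 pairs. An unadjusted permutation p under 0.05 was found for 6 pairs (two-sided, 100000 shuffles within doses), and 0 of the 45 passed after adjustment in limma's fit over all probe sets. That adjustment is far wider than the 45 pairs, and the permutation p-values were not adjusted over the 45 pairs alone.

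**Figure D4:**
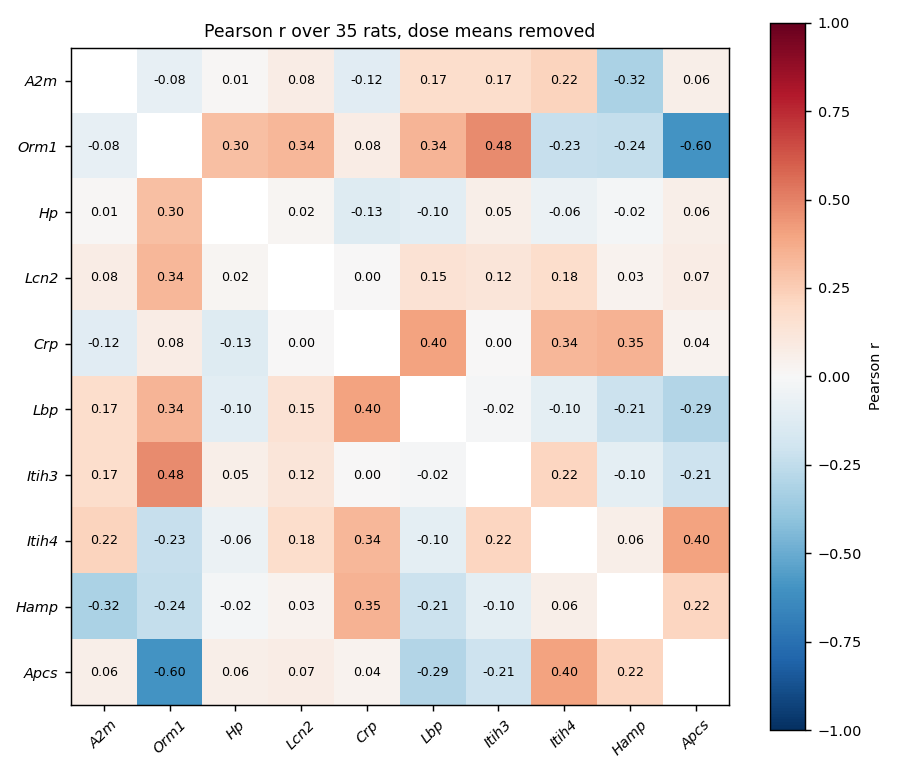
Pearson's r of every pair of acute phase genes among rats of one dose, with dose means removed, over 35 rats (colour and printed value, both axes listing the 10 genes). The strongest cell is Orm1 with Apcs at -0.60, most cells lie near 0, and the row of A2m holds no value beyond -0.32.

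The strongest relation was a negative one. Orm1 and Apcs had r = -0.60 (permutation p = 0.00059) and Spearman's rho = -0.55 (permutation p = 0.00209), and r = -0.53 without the 2 rats farthest from the Orm1 median. The sign was negative in 6 of 6 dose groups, with r from -0.89 at 0.69 mg/kg to -0.30 at 680 mg/kg. Within groups of 6 the exact permutation test gave r = -0.89 (p = 0.0181) at 0.69 mg/kg and r = -0.82 (p = 0.0403) in vehicle rats, and p from 0.208 to 0.625 in the other 3 groups of 6, where the smallest p possible is 0.00139. The pair did not pass over all probe sets, where limma's adjusted p was 0.256 with Orm1 as the covariate and 0.135 with Apcs. Leaving out any 1 rat left r between -0.66 and -0.55, and it was -0.56 without vehicle replicate 1, a choice made after the data had been seen.

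Orm1 and Itih3 had r = 0.48 (permutation p = 0.00395) and rho = 0.48 (permutation p = 0.00641), positive in 6 of 6 groups, and r = 0.46 without the 2 farthest rats. limma's adjusted p was 0.743 with Orm1 as the covariate and 0.200 with Itih3. The Itih3 values span a range of 1.09-fold over all rats, and r was 0.16 when the deposited values were quantile normalised again.

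Of the other 6 of the 8 strongest pairs, Crp and Lbp had r = 0.40 (permutation p = 0.0151) and rho = 0.47 (permutation p = 0.00673), and r = 0.36 without the 2 farthest rats. Itih4 and Apcs had r = 0.40 (permutation p = 0.0330, rho = 0.41). Crp and Hamp had r = 0.35 (permutation p = 0.0405, rho = 0.27), which rested on 1 group: it was 0.98 at 680 mg/kg (exact permutation p = 0.00278), -0.80 in vehicle rats (exact permutation p = 0.0542), and 0.18 over all rats without the 680 mg/kg group. Orm1 and Lbp had r = 0.34 (permutation p = 0.0602), Orm1 and Lcn2 r = 0.34 (permutation p = 0.0496, rho = 0.25 and r = 0.19 without the 2 farthest rats), and Crp and Itih4 r = 0.34 (permutation p = 0.106). The adjusted p of limma was 0.365 or more in all 6 of these pairs with either gene as the covariate.

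The 9 correlations of A2m with the other members ran from -0.32 with Hamp (permutation p = 0.108) to 0.22 with Itih4 (permutation p = 0.304), and 0 of 9 had an unadjusted permutation p under 0.05, as was also so for the 9 of Hp. Without replicate 5 of the 0.69 mg/kg group the value with Hamp was -0.04. With Orm1, the other strong acute phase gene of the rat, A2m had r = -0.08 (permutation p = 0.632).

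Each member was then set as a covariate beside the dose groups in limma, and every other probe set was tested for co-variation with it. In all 10 fits 0 of the other 9 members were called. The share of all 31041 other probe sets called was 0% for A2m, 0.0193% for Orm1, 0% for Hp, 0.00322% for Lcn2, 0% for Crp, 0.132% for Lbp, 0.264% for Itih3, 0% for Itih4, 0.00644% for Hamp and 0.0773% for Apcs. In counts these were 6 probe sets for Orm1, 1 for Lcn2, 41 for Lbp, 82 for Itih3, 2 for Hamp and 24 for Apcs. The counts for Lbp and Itih3 moved most with the processing. Itih3 co-varied with 2607 probe sets when each array was centred on its median and with 7 after quantile normalisation again, and Lbp with 3 and 326 under the same settings. Single rats moved the counts as well. Itih3 had 0 calls without replicate 6 at 680 mg/kg and 137 without replicate 4 at 6.88 mg/kg, Lbp had 2 without replicate 2 at 6.88 mg/kg and 107 without replicate 3 at 0.07 mg/kg, and Apcs had 29 without replicate 6 at 6.88 mg/kg and 2 when any of 4 rats was omitted, namely vehicle replicate 1 or 6, replicate 4 at 0.07 mg/kg or replicate 6 at 0.69 mg/kg.

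The 6 probe sets called with Orm1 were those of Gpt, Elapor1, Hlf, Inava and Chpt1, with positive slopes, and Pabpc4, with a negative one. Gpt encodes alanine aminotransferase and had r = 0.74 with Orm1 (rho = 0.67, limma adjusted p = 0.0172), and Hlf, a circadian PAR bZIP transcription factor, had r = 0.71 (adjusted p = 0.0445). Chpt1, a choline phosphotransferase, had the highest correlation of the genes compared, r = 0.76 (adjusted p = 0.0476), followed by Gpt and by Tmem176a (r = 0.74, adjusted p = 0.0827). Without vehicle replicate 1 r was 0.69 for Gpt and 0.72 for Chpt1. The number of probe sets called with Orm1 was 0 without vehicle replicate 5, replicate 1 at 0.07 mg/kg or replicate 6 at 680 mg/kg, and 25 without vehicle replicate 4, so no single call with Orm1 held throughout.

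None of the lists had a member called with Orm1. The members with the smallest p were Serpina6, corticosteroid-binding globulin, and Hrg among negative acute phase genes (limma adjusted p = 0.256 and 0.304), Bcl3 and Junb of IL-6 and STAT3 signalling (0.393 and 0.473), and Mt2A and Reg3b of the other positive acute phase genes (0.367 and 0.471). Socs3, a feedback inhibitor of STAT3 signalling that read 4.48 on average, under the lowest array median, had r = -0.21 with Orm1 (permutation p = 0.292), and Stat3 had r = -0.03 (permutation p = 0.876). Of 17 negative acute phase genes 4 had a positive slope on Orm1, and of 21 IL-1, TNF and NF-kB genes 6. Of 12 Kupffer and macrophage markers 1 had such a slope, where 50.3% of all probe sets did. Nearer that share were 14 of 26 other positive acute phase genes and 13 of 23 IL-6 and STAT3 genes. So were 5 of the 9 other members and 6 of 12 hepatocyte markers.

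For A2m the 3 most similar genes were Lcmt1, a methyltransferase of protein phosphatase 2A (r = 0.72, limma adjusted p = 0.0596), Apoa1, the main protein of high density lipoprotein (r = 0.64, adjusted p = 0.609), and Acat1 of ketone metabolism (r = 0.64, adjusted p = 0.769). Stat3, the factor that carries the interleukin-6 signal to A2m, had r = 0.48 (permutation p = 0.00808) and rho = 0.46 (permutation p = 0.0115), and limma's adjusted p was 0.873. Ptpn6, the other IL-6 and STAT3 gene named by smallest p, had an adjusted p of 0.997. Socs3 had r = -0.12 with A2m (permutation p = 0.563). Of 23 measured IL-6 and STAT3 genes, Stat3 among them, 12 had a positive slope on A2m, where 50.0% of all probe sets did. So had 17 of 26 other positive acute phase genes and 9 of 12 hepatocyte markers. Slopes on A2m were positive for 0 of 12 Kupffer and macrophage markers and 3 of 18 iron and BMP regulators. In these lists 0 members were called.

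**Figure D5:**
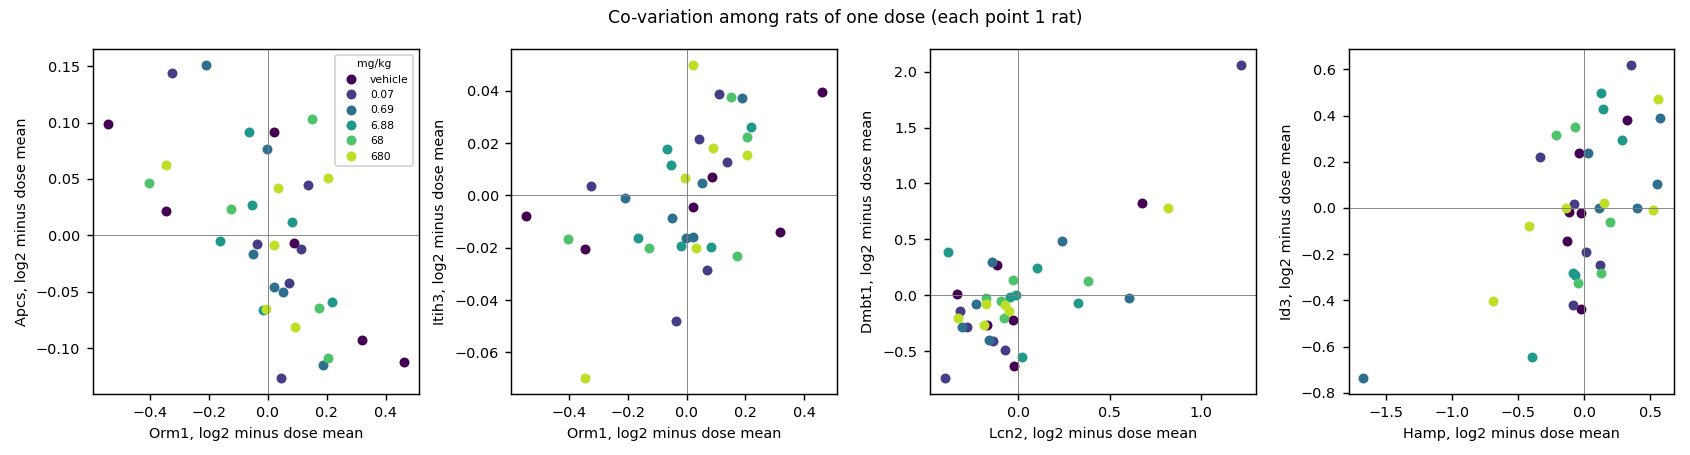
Deviations from the dose means, in log2 units, of Apcs against Orm1, Itih3 against Orm1, Dmbt1 against Lcn2 and Id3 against Hamp, with 1 point per rat. Apcs falls and Itih3 climbs along Orm1 over many rats, whereas single rats lie far out in the panels of Lcn2 and Hamp.

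Lcn2 had Dmbt1 as its nearest gene and its only call (r = 0.74, limma adjusted p = 0.0111), then Spp1 (r = 0.70, adjusted p = 0.0516) and the chemokine gene Ccl21 (r = 0.67, adjusted p = 0.0516). Without replicate 6 at 0.07 mg/kg these were 0.51, 0.53 and 0.44, and Spearman's rho over all rats was 0.41, 0.42 and 0.33. No probe set was called with Lcn2 without that rat or without vehicle replicate 5. Krt19 had r = 0.50, and 0.27 without that rat. The neutrophil genes S100a8 and S100a9 had r = 0.26 (permutation p = 0.154) and r = 0.09 (permutation p = 0.683). Slopes on Lcn2 were positive for 7 of 7 measured cholangiocyte markers, of which 1, Dmbt1, was called. That list was added after the data had been seen, so its count is no independent test. Slopes on Lcn2 were also positive for 11 of 12 lymphocyte markers, 9 of 9 other members, 20 of 26 other positive acute phase genes and 7 of 9 neutrophil markers. Of these 0 were called, and 48.5% of all probe sets had positive slopes. Without replicate 6 at 0.07 mg/kg these counts were 6 of 7, 11 of 12, 6 of 9, 23 of 26 and 7 of 9.

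Hamp had as nearest genes Cd36, a fatty acid transporter (r = 0.68), Klf4, a transcription factor (r = 0.67), and Gng11, a G protein subunit (r = 0.67), each with a limma adjusted p of 0.0919. Without replicate 5 at 0.69 mg/kg these were 0.49, 0.32 and 0.54. Its 2 calls were negative, Gmppb, an enzyme of GDP-mannose synthesis (r = -0.75, adjusted p = 0.0237), and 1 unnamed probe set, and neither was called without that rat. Id3 and Id1, targets of the BMP pathway that controls hepcidin, had r = 0.60 (permutation p = 0.00039) and r = 0.57 (permutation p = 0.00662), with limma adjusted p of 0.245 and 0.279; both were picked from their list after values had been seen. Without that rat r was 0.48 for Id3 and 0.36 for Id1. Of the 18 measured iron and BMP regulators 12 had a positive slope on Hamp, and 0 were called. Cd163 had r = 0.52, and 0.10 without that rat. Of 12 Kupffer and macrophage markers 12 had a positive slope on Hamp, and 11 without that rat, where 47.6% of all probe sets did, and 0 were called. The same markers had a positive slope in 12 of 12 cases on Crp and 11 of 12 on Itih4, and in 0 to 5 of 12 on the 7 other members. Hamp also correlated with the Actb 3 prime to 5 prime difference at r = -0.47 (permutation p = 0.00927), and at -0.37 without that rat.

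Lbp had Ltbr, the lymphotoxin beta receptor, as its nearest gene (r = 0.80, rho = 0.78, limma adjusted p = 0.00513), then Furin, a proprotein convertase (r = 0.72, adjusted p = 0.0493), and Ptms (r = 0.72, adjusted p = 0.0676). The lowest correlation was with Dr1, a repressor of transcription (r = -0.78, adjusted p = 0.0142). Itih3 had Eea1, an endosome tether (r = 0.76, adjusted p = 0.0102), Tinf2, a telomere protein (r = 0.74, adjusted p = 0.0284), and Adck2 (r = 0.71, adjusted p = 0.0330). The smallest adjusted p with Itih3 belonged to a dimmer probe set of Hnrnpu, a nuclear RNA-binding protein (r = 0.78, adjusted p = 0.00101), which was not the 1 that stood for its gene. Apcs had Fas, a death receptor (r = 0.75, adjusted p = 0.0083), Eps15l1, an endocytosis factor (r = 0.74, adjusted p = 0.0442), and Ptgis, prostacyclin synthase (r = 0.70, adjusted p = 0.0312). At the negative end of Apcs stood Dhrs7l1 (r = -0.75, adjusted p = 0.00605), Tmem14c (r = -0.74, adjusted p = 0.0442) and the glutathione transferase Gstt3 (r = -0.70, adjusted p = 0.0312).

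For Hp, Crp and Itih4, no other probe set was called. Hp had Nsun6 and Tigd5 (r = 0.59 each) and Mcfd2, a cargo receptor for coagulation factors (r = 0.56), all with a limma adjusted p of 1.00. Crp had Dync2i2 (r = 0.63), Cdk2, a cell cycle kinase (r = 0.62), and St3gal3, a sialyltransferase (r = 0.61), with adjusted p from 0.603 to 0.767. Itih4 had as its nearest gene Itih2, another heavy chain of the same inhibitor family (r = 0.63, adjusted p = 0.702), followed by Ston2 (r = 0.62) and Brd10 (r = 0.62), each with an adjusted p of 0.370. All likenesses were taken over 35 rats with dose means removed, where each gene was represented by its probe set with the highest mean and that mean lay above the lowest array median.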

How the data were processed

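Liver RNA of 35 rats was read on Affymetrix rat expression arrays. The submitters' processing notes name RMA and affy, each with a version not given in the sources used here. Per the authors' deposited table there was 1 value per probe set, read here as log2 expression because RMA by convention uses that base. RMA makes the distributions of the arrays alike, so a shift shared by most genes would be reduced. The table listed 31099 probe sets, of which 57 controls were left out and 31042 tested without a filter on dim signals. Of these, 20826 had 1 gene symbol in the platform annotation, 436 had several and 9780 none. RefSeq identifiers of GRCr8 matched 20758, and 0 symbols changed.

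Groups came from the labels. Using limma 3.58.1 under R 4.3.3, 6 group coefficients were fitted to all arrays and each dose was set against vehicle. Calls needed an adjusted p under 0.05 (Benjamini-Hochberg over all probe sets). Where the study's design text names R/maanova with a 5% false discovery rate, limma was used instead. An F test, a trend over dose rank 0 to 5 and co-variation fits, with each member as a covariate beside the groups, came from the same tool. Pair correlations used values with dose means removed, 100000 shuffles within doses, and exact tests over the 720 pairings in groups of 6. The fits were tested on simulated data with known changes.

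The members and the gene lists were chosen with earlier results of these data known. The lists are other positive and negative acute phase genes, IL-6 and STAT3, IL-1, TNF and NF-kB signalling genes, iron and BMP regulators of hepcidin, glucocorticoid responsive genes, and markers of neutrophils, Kupffer cells and macrophages, lymphocytes, hepatocytes and blood. Cholangiocyte markers were added later. Some genes stand in more than 1 list. The genes named are the members, the 3 genes most like each, the list members called with Orm1 or A2m or else the 2 with the smallest p, and the 8 strongest pairs; others are said to be chosen after their values were seen. Each choice was varied 1 at a time: dropping dim probe sets, normalising again by quantiles, centring arrays on their medians, adding the replicate number as a block, moderating with an intensity-dependent robust prior, weighting arrays, leaving variances unmoderated, fitting only the groups compared, adding the Actb 3 prime minus 5 prime difference, a log10 dose scale, Spearman's rho, the median absolute deviation, and omitting each dose group or each rat.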

Additional observations from a re-analysis of the deposited data

Results flagged for a closer look

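Of 60 groups of rats, 10 genes in 6 groups, 8 held 1 rat that stood apart from the rest by Dixon's test, where chance alone flags about 5% of groups, or 1 in 20. The gap to the nearest rat is given as a share of the whole range of the group. Lcn2 accounted for 4 of them, each at the high end. It read 6.31 in replicate 6 at 0.07 mg/kg, with the nearest rat at 5.02 (share of the range 0.798), 5.23 in replicate 5 at 68 mg/kg, with the nearest at 4.82 (0.731), and 5.72 in replicate 3 at 680 mg/kg, with the nearest at 4.85 (0.757). In vehicle replicate 5 it read 5.90, with the nearest rat at 5.20 (0.692).

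Hamp read 10.50 in replicate 5 at 0.69 mg/kg, with the nearest rat at 12.20 (0.758), and 12.72 in vehicle replicate 4, with the nearest at 12.38 (0.765). Lbp read 8.12 in replicate 2 at 680 mg/kg, with the nearest rat at 8.33 (0.631). Hp read 13.74 in replicate 1 at 680 mg/kg, with the nearest at 13.70 (0.657), a gap of a few hundredths of a log2 unit. A2m had no such rat in any of its 6 groups.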

How the results depend on the processing

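No member passed at any dose, in the F test or in the trend under any alternative run. With no dose value called, no called sign could turn. Signs of uncalled values did turn: leaving out 1 rat put the log2 difference of Hamp at 0.69 mg/kg between -0.35 and 0.10. For the probe sets called in the co-variation fits, only the counts were compared. Among calls, what changed was how many probe sets co-varied with a member. The count was 3 for A2m, 24 for Orm1, 155 for Lbp and 11 for Hamp with a filter on dim probe sets. It was 11 for Orm1, 5 for Lcn2, 326 for Lbp, 7 for Itih3, 1 for Hamp and 7 for Apcs after quantile normalisation again, and 3 for A2m, 3 for Lbp, 2607 for Itih3 and 1 for Hamp with median centring. With the Actb difference as a covariate it was 12 for Orm1, 6 for Lcn2 and 0 for Hamp. Without the vehicle rats it was 3 for A2m, 0 for Orm1, 66 for Lbp, 1 for Itih3, 0 for Hamp and 0 for Apcs. Without the 0.07 mg/kg rats it was 0 for Orm1, Lcn2, Hamp and Apcs, 63 for Lbp, 1 for Itih3 and 1 for Itih4. Without 0.69 mg/kg it was 3 for Orm1, 26 for Lbp, 29 for Itih3 and 0 for Hamp and Apcs. Without 6.88 mg/kg it was 0 for Orm1, Lbp and Hamp, 11 for Lcn2, 208 for Itih3 and 10 for Apcs. Without 68 mg/kg it was 13 for Itih3, 0 for Hamp and 15 for Apcs, and without 680 mg/kg 0 for Orm1, Lcn2 and Itih3, 18 for Lbp and 8 for Apcs. Leaving out 1 rat gave 0 to 3 for A2m, 0 to 25 for Orm1, 0 to 10 for Lcn2, 2 to 107 for Lbp, 0 to 137 for Itih3, 0 to 1 for Itih4, 0 to 8 for Hamp and 2 to 29 for Apcs. The cause of these moves was not tested.

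The replicate numbers paired no rats: over 85 same-numbered pairs in different groups the deviations correlated at -0.30 to 0.27, and 5 of 35 arrays correlated best with their own number. With the number as a replicate block the counts were 1 for A2m, 0 for Orm1, 2 for Lcn2, 3 for Lbp, 0 for Hamp and 9 for Apcs, and the pair of Orm1 and Apcs had r = -0.67. The SD by median absolute deviation was 0.0888 for Orm1, 0.0142 for Hp, 0.121 for Lcn2 and 0.213 for Hamp, and leaving out 1 rat gave 0.288 to 0.450 for Hamp. The unadjusted permutation p of the pairs Crp with Lbp, Itih4 with Apcs, Crp with Hamp, Orm1 with Lbp, Orm1 with Lcn2 and Orm1 with Itih3 crossed 0.05 under some settings, the last of these after quantile normalisation again alone (r = 0.16), and those of Orm1 with Apcs and Crp with Itih4 under none run. Another probe set per member was not run, since each had 1. Values of Lcn2 lie near the array medians, where RMA compresses differences, and those of Hp, Itih3 and Itih4 near the top of the range of values.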
